A study of Homo sapiens with 2 samples.

Results

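The genes examined were the Wnt receptors FZD1 to FZD8 and the co-receptors LRP5 and LRP6, which are 10 of the 57736 genes in the expression tables of HEK293T cells. They were chosen by name, as the rows whose Ensembl identifier carries one of these symbols in the GRCh37 annotation, and each symbol matched 1 row in both tables. HEK293T is a line grown from human embryonic kidney and made to express the large T antigen of the virus SV40. The cells were labelled wild type, were grown untreated in DMEM with 10% FBS, and formed a single group of 2 RNA-Seq libraries of poly(A)+ RNA. There was no second condition, so genes were compared with each other and the libraries with each other. The labels do not say whether the libraries came from separate cultures, so their spread may be technical.

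Frizzled proteins cross the membrane several times and bind the lipid-bearing Wnt ligand through a cysteine-rich domain outside the cell. LRP5 and LRP6 cross it a single time and join a frizzled and its ligand in one complex, which draws Dishevelled and Axin to the membrane and spares beta-catenin from destruction. FZD3 and FZD6 are best known for planar cell polarity, FZD4 also binds norrin, and R-spondins keep frizzled and LRP proteins at the surface by clearing the ubiquitin ligases ZNRF3 and RNF43.

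The frizzled genes resemble each other, which matters for counting because a read was 50 nt long and could fit more than 1 of them. By alignment of the translated coding sequences (GENCODE release 44 on GRCh37) FZD1, FZD2 and FZD7 were 80.1% to 81.25% identical in pairs, and FZD5 and FZD8 71.8%. FZD3 and FZD6 shared 54.2% of aligned residues, and LRP5 and LRP6 70.7%. In 4 pairs of FZD1 to FZD8 the coding sequences held an identical stretch of at least 50 nt. The stretches are shown in full because a read inside one cannot be placed, and all of them are coding exon sequence. FZD1 and FZD2 shared 81 nt, at chr7:90895377-90895457 on the plus strand and chr17:42636013-42636093 on the plus strand. FZD2 and FZD7 shared 69 nt near the start of their coding sequences, at chr17:42635156-42635224 and chr2:202899500-202899568, both on the plus strand. FZD2 and FZD5 shared 52 nt, at chr17:42636069-42636120 on the plus strand and chr2:208632436-208632487 on the minus strand. FZD5 and FZD8 shared 51 nt, at chr2:208633116-208633166 and chr10:35930004-35930054, both on the minus strand.
FZD1 and FZD2: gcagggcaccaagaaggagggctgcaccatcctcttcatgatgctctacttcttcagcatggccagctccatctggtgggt
FZD2 and FZD7: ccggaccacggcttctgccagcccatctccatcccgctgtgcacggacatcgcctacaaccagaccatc
FZD2 and FZD5: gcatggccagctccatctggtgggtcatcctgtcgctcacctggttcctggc
FZD5 and FZD8: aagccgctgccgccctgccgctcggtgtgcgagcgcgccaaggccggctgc

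These stretches were a small part of each transcript as annotated here, which for FZD2 was 3779 nt against 1983 nt in the authors' tables. Reads were trimmed and could be shorter than 50 nt, and FZD1 and FZD7 also shared a coding stretch of 47 nt. Of the 50-nt words of the FZD2 transcript 55 of 3730 occurred in another frizzled, which was the highest number among the 10 genes, against 32 of 6845 for FZD1, 20 of 4538 for FZD7, 6 of 6990 for FZD5 and 3 of 4001 for FZD8. FZD3, FZD4 and FZD6 shared no such word with another frizzled, and LRP5 shared none with LRP6, where the longest identical coding stretch was 25 nt. Against the transcripts of all other genes, FZD3 shared the most words in the same orientation, 140 or 1.02%, and FZD2 shared 82 or 2.20%. Words that were the reverse complement of another gene's transcript numbered 1340 in FZD4, 269 in FZD8 and 133 in FZD3.

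**Figure D1:**
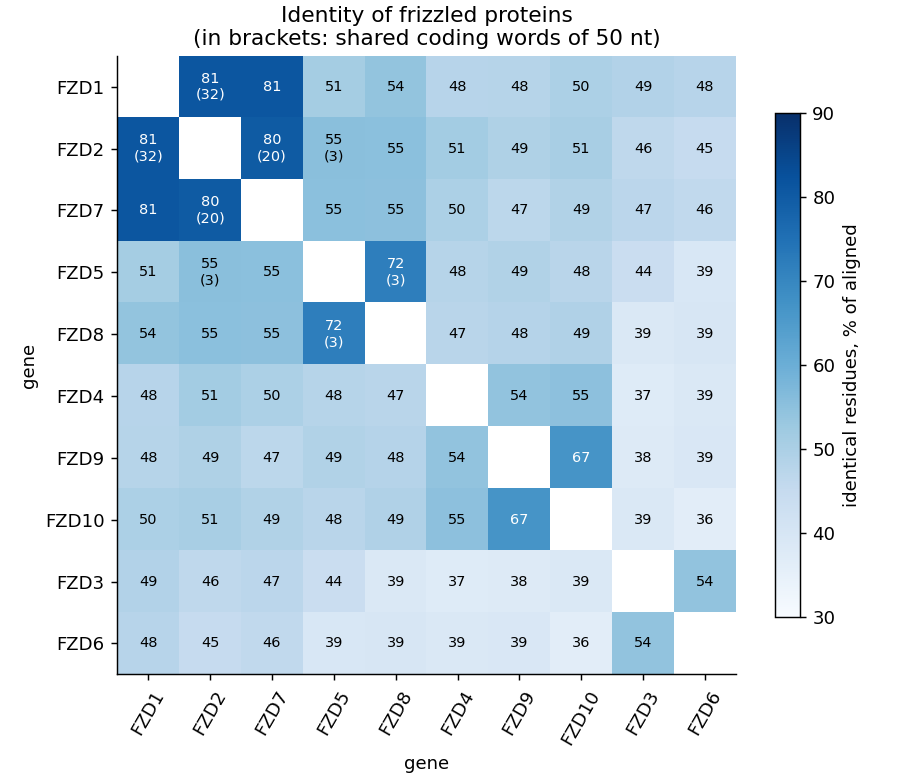
Percent of aligned residues that are identical between each pair of the 10 human frizzled proteins, with the number of shared coding words of 50 nt in brackets where there are any. FZD1, FZD2 and FZD7 form the darkest block, at 80.1% to 81.25%, followed by FZD5 with FZD8 at 71.8%.

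Every frizzled carries the intracellular motif Lys-Thr-X-X-X-Trp, to which Dishevelled binds. It was found once in each of the 8 proteins. In FZD1, FZD2 and FZD7 it was followed by 17 residues, in FZD4 by 33, in FZD5 by 55 and in FZD8 by 81, whereas FZD3 and FZD6 had longer tails of 159 and 203 residues. The 42 nt around it are shown for 6 genes, with the codons of Lys, Thr and Trp in capitals, to show how far their bases are alike. They lie in coding exons on GRCh37, at chr7:90896056-90896097 (FZD1, plus strand), chr17:42636671-42636712 (FZD2, plus strand), chr2:202901012-202901053 (FZD7, plus strand), chr2:208631862-208631903 (FZD5, minus strand), chr10:35928507-35928548 (FZD8, minus strand) and chr11:86662274-86662315 (FZD4, minus strand).
FZD1: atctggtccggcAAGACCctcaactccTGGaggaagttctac
FZD2: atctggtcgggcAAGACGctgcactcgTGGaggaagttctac
FZD7: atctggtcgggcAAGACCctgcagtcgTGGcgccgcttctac
FZD5: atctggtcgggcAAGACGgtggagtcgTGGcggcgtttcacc
FZD8: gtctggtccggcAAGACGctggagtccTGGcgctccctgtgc
FZD4: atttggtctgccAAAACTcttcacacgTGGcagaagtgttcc
FZD1 and FZD2 had the same base at 37 of the 42 positions, the most of any pair shown, and FZD4 and FZD8 at 22, the fewest.

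All 10 receptors were detected, with a TPM (the share of a gene in all transcripts, corrected for length) of at least 1 in both replicates. The same threshold was passed by 27.7% of all genes and by 63.7% of protein-coding genes. The libraries held 10593491 and 10104118 estimated counts, so that a gene with no reads could have up to 3 counts, which is 0.283 and 0.297 CPM (counts scaled to the library total). This limit and the intervals of count ratios below cover counting error only, since PCR reads without molecular identifiers are not independent molecules. No receptor came near it, as the lowest had 130 estimated counts, rounded, in a replicate. The median level of the 10 receptors was 3.38 on the log2(TPM + 1) scale, against 4.47 for the 12345 detected protein-coding genes, a difference of -1.09. Of the 10 receptors 9 lay below the median of 21.2 TPM of those genes, and LRP5 lay above it. All 19391 protein-coding genes, detected or not, had a median of 6.5 TPM, or 2.91 on the log2 scale, and the median of the receptors lay above that.

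The co-receptors had the highest levels. LRP5 had a TPM of 24.0 in replicate 1 and 37.0 in replicate 2, and LRP6 of 18.2 and 20.5. LRP5 was the higher in both replicates, and their ranges did not overlap. The deposited TPM interval of LRP5 ran from 21.4 to 31.7 in replicate 1 and from 27.3 to 45.0 in replicate 2, and that of LRP6 from 16.3 to 23.8 and from 16.9 to 25.2. These intervals overlapped in replicate 1 and were apart in replicate 2.

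Among the frizzleds the levels of 6 genes were close together. FZD6 had 12.1 and 11.1 TPM in replicates 1 and 2, and FZD3, its nearest relative, 8.92 and 10.2. FZD6 was above FZD3 in both replicates, but by the posterior mean TPM FZD3 was the higher in replicate 2, at 11.01 against 10.69, and their deposited intervals overlapped. FZD2 had 9.56 and 10.46 TPM and FZD7 8.39 and 10.2, while FZD1, the third member of their group, had 4.06 and 5.31. FZD1 was therefore the lowest of the 3 in both replicates, 1.98-fold below FZD7 in the ratio of mean TPM. FZD8 had 9.67 and 8.91 TPM and FZD5, its closest relative, 7.50 and 8.37, with FZD8 the higher in both. Their deposited intervals were apart in replicate 1 but overlapped in replicate 2, at 7.12 to 9.39 for FZD8 and 6.98 to 8.49 for FZD5. In estimated counts FZD5 was the higher in both replicates. FZD4, the norrin receptor, had the lowest TPM of the 10 in both replicates, 3.68 and 3.73, with the transcript lengths that the authors' tables assign. In estimated counts FZD1 was below FZD4 in both, with 130 and 164 against 201 and 197.

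**Figure D2:**
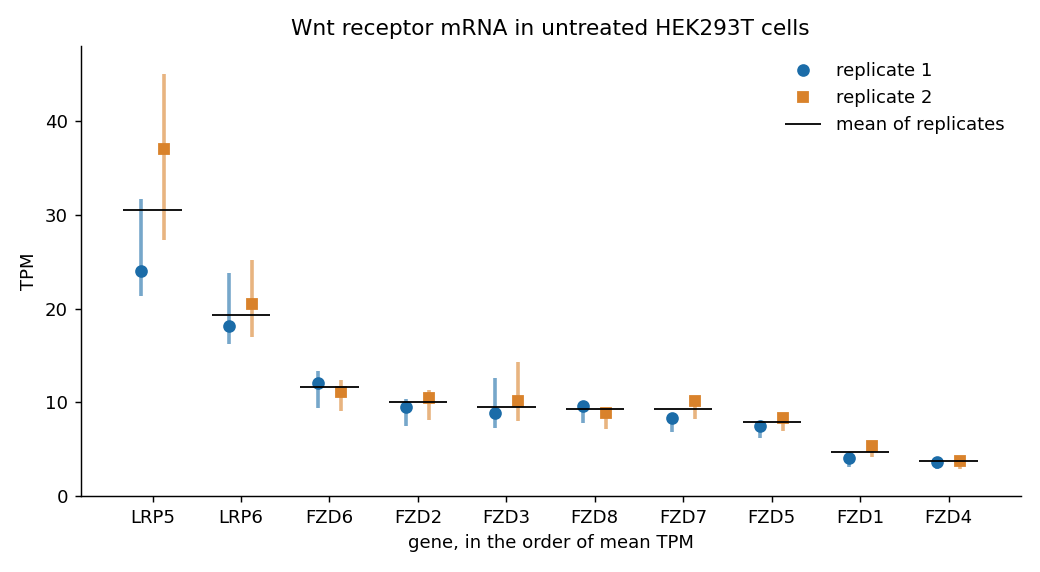
TPM of each receptor in the 2 replicates (circle and square), with the deposited TPM interval as a vertical line and the mean of the replicates as a horizontal bar, in the order of mean TPM. LRP5 and LRP6 lie above every frizzled, the replicates of LRP5 are the farthest apart, and FZD1 and FZD4 are the lowest.

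In the order of mean TPM, LRP5 at 30.5 ± 9.18 (SD, n = 2) was followed by LRP6 at 19.4 ± 1.66, FZD6 at 11.6 ± 0.679, FZD2 at 10.0 ± 0.636 and FZD3 at 9.54 ± 0.877. FZD8 came next at 9.29 ± 0.537, then FZD7 at 9.27 ± 1.24, FZD5 at 7.94 ± 0.615, FZD1 at 4.68 ± 0.884 and FZD4 at 3.71 ± 0.0354 (SD, n = 2 each). Of the 9 pairs of neighbours in this order 3 had overlapping replicates, FZD2 with FZD3, FZD3 with FZD8 and FZD8 with FZD7, so the order of these 4 genes is not resolved by the replicates. The other 6 pairs did not overlap, but judged by the deposited intervals only LRP6 with FZD6 and FZD5 with FZD1 were apart in both replicates. No test was made between genes, because an exact permutation test of 2 values against 2 cannot give a two-sided p below 0.333. The span from FZD4 to FZD6 was 3.14-fold and that from FZD4 to LRP5 8.24-fold.

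Summed over FZD1 to FZD8, frizzled mRNA came to 63.9 TPM in replicate 1 and 68.2 TPM in replicate 2. FZD6, the highest, held 17.6% ± 1.85 of this sum (SD, n = 2), and FZD4, the lowest, 5.61% ± 0.208. The group of FZD1, FZD2 and FZD7 held 36.2% ± 2.50, FZD3 with FZD6 held 32.1% ± 1.19, and FZD5 with FZD8 held 26.1% ± 1.10 (SD, n = 2 each). No single frizzled made up most of the frizzled mRNA. The sum of LRP5 and LRP6 was 42.2 TPM and 57.6 TPM, which is 0.661 and 0.843 of the frizzled sum in the respective replicate. These are mRNA levels of a bulk sample, in which fewer cells with a transcript and less of it per cell cannot be told apart.

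The level of LRP5 differed most between the replicates, while its counts were nearly the same. Estimated counts of LRP5 were 739 and 718 in the respective replicate. The transcript length that the authors' tables assign to it, an average over its isoforms weighted by their estimated amounts, was 4167 nt in replicate 1 and 2748 nt in replicate 2. The annotation used here, whose transcript lengths may differ from those behind the authors' values, lists 7 LRP5 transcripts, 5 short ones of 267 to 586 nt and 2 long ones of 5103 to 5177 nt, with no lengths between. If these lengths applied, the weighted means would correspond to 19.4% to 22.0% short transcripts in replicate 1 and to 48.7% to 52.9% in replicate 2. The TPM ratio between replicates was thus 0.62 on the log2 scale while the count ratio was 0.04, with a 95% exact binomial interval of -0.11 to 0.19.

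LRP6 showed a smaller shift of the same kind, and FZD6 one in the opposite direction. LRP6 had 750 and 757 estimated counts and an assigned length of 5579 nt and 5182 nt. FZD6 had 215 and 219 estimated counts, with an assigned length of 2431 nt in replicate 1 and 2783 nt in replicate 2. Its counts per library were slightly higher in replicate 2, at 0.10 on the log2 scale, whereas its TPM was lower there, at -0.12. FZD1, FZD2, FZD4, FZD5, FZD7 and FZD8 each have 1 transcript in the tables, and their assigned length was the same in both replicates.

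**Figure D3:**
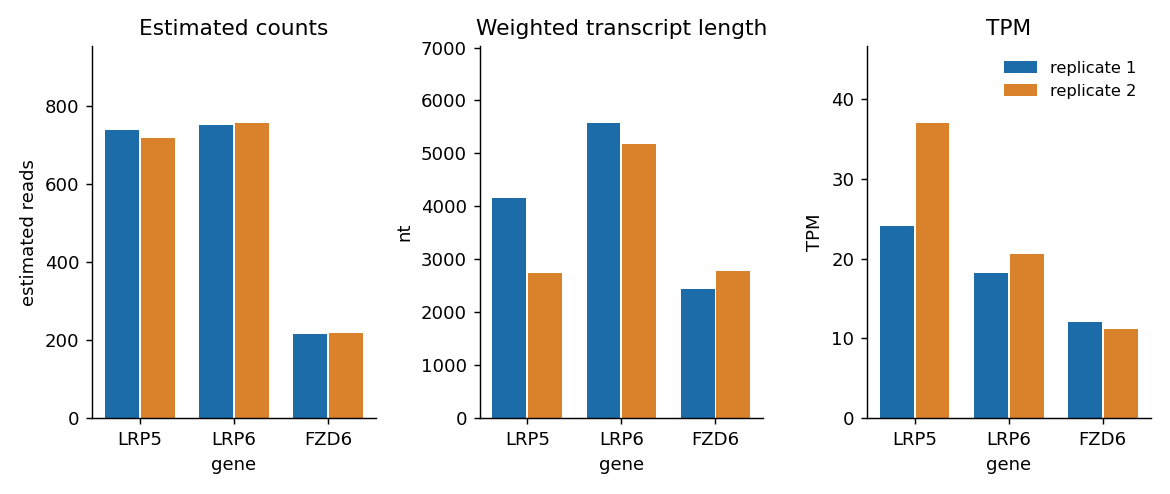
Estimated counts, assigned transcript length in nt and TPM of LRP5, LRP6 and FZD6 in the 2 replicates, as bars from 0. The counts of LRP5 are nearly level, its length is 4167 nt against 2748 nt, and its TPM is 24.0 against 37.0.

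The order of the co-receptors depended on this correction. In TPM the log2 ratio of LRP6 to LRP5 was -0.40 in replicate 1 and -0.85 in replicate 2, with a mean of -0.63 ± 0.32 (SD, n = 2), so LRP5 was 1.54-fold higher. In estimated counts, which are not corrected for length, LRP6 was level with or slightly above LRP5, at 0.02 and 0.08. With the counts divided by the length of the canonical transcript of each gene, 5177 nt for LRP5 and 10252 nt for LRP6, the ratio was -0.96 and -0.91. LRP5 was therefore higher per length on each scale that uses one, by an amount that varied with the lengths used.

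Without the correction for length the order of the frizzleds was another. FZD3, which had 390 and 426 estimated counts, rounded, had more reads than any other frizzled, and FZD2, with 138 and 145, had the fewest in sum. The assigned length was 1983 nt for FZD2 and 5918 nt and 5884 nt for FZD3, and in TPM FZD2 stood just above FZD3. By the posterior mean TPM that the tables also give, the direction was turned in both replicates, with 9.80 and 11.01 for FZD3 against 8.89 and 9.70 for FZD2. In estimated counts FZD5 was second, with 373 and 400, and FZD6 held 11.01% ± 0.328 of the frizzled reads (SD, n = 2) in place of its share by TPM. The assigned lengths of the single-transcript genes were shorter than in the annotation used here, by the most for FZD1 (4341 nt against 6894 nt) and FZD2 (1983 nt against 3779 nt). The places of FZD1 and FZD2 in the order by TPM therefore depend on the lengths used.

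Whether the libraries differed in receptor counts was asked by an exact two-sided binomial test over 17920 genes, which sets their difference against counting error. None of the 10 receptors differed after Benjamini-Hochberg adjustment, against 3.88% of all genes tested, and 3 had an unadjusted p under 0.05, against 13.3% of all genes. The exact test of edgeR called none of the receptors, against 1.21% of all genes. Its common dispersion was estimated from the spread between these same 2 libraries, so it cannot serve as a separate check. FZD1 had 130 and 164 counts, a log2 ratio of 0.41 with an interval of 0.07 to 0.76 (exact binomial p = 0.0166, adjusted 0.204). FZD7 had 238 and 277 counts and a log2 ratio of 0.30, with an interval of 0.04 to 0.55 (exact binomial p = 0.0218, adjusted 0.239). FZD3 had a log2 ratio of 0.21 (exact binomial p = 0.0423, adjusted 0.345). By the exact test of edgeR the unadjusted p was 0.0359 for FZD1, 0.0638 for FZD7 and 0.141 for FZD3. The lowest ratio was that of FZD8, at -0.09. The median absolute ratio of the 10 receptors was 0.13, against 0.09 for the 11885 tested genes whose counts summed to 100 or more. These tests compare the 2 libraries and say nothing of a condition.

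**Figure D4:**
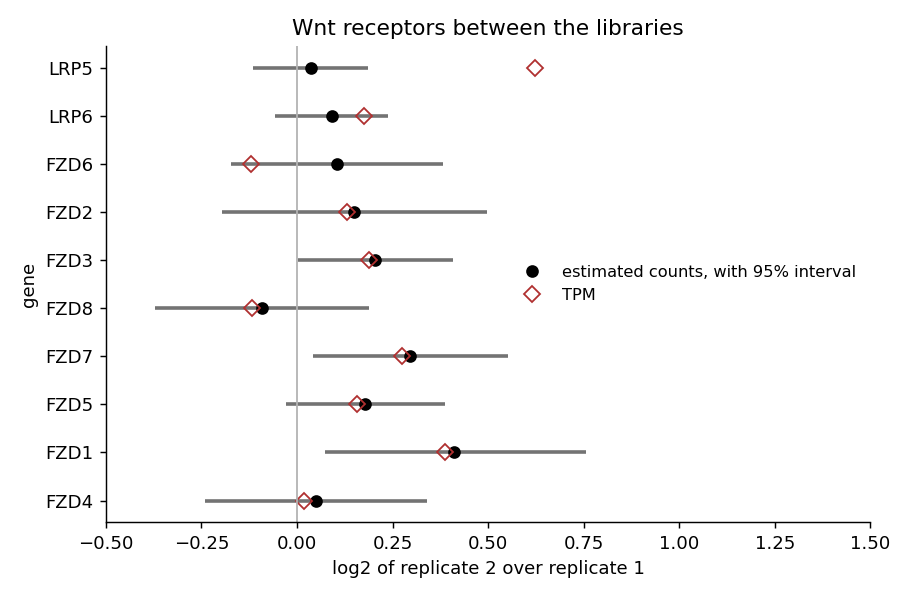
Log2 ratio of replicate 2 to replicate 1 for each receptor, in estimated counts scaled to the TMM-adjusted library sizes (filled circle, with the 95% exact binomial interval) and in TPM (open diamond). The TPM ratio of LRP5, 0.62, lies outside the interval of its counts, and the intervals of FZD1, FZD7 and FZD3 lie above 0. The intervals cover counting error only.

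The posterior SD of each receptor count was small beside the count itself. How far another sharing of the reads that fit several genes would move the counts was not tested. Of the 10 receptors LRP6 alone had whole estimated counts in both replicates, and the other 9 had a fraction of a read assigned in at least 1 replicate. Among the 17920 genes tested between the libraries 8675 had whole estimated counts. The posterior SD that the tables give for a count was highest for FZD4, at 3.28 of 201 counts in replicate 1 and 5.08 of 197 counts in replicate 2, which is 2.58% of the latter. FZD4 lies opposite PRSS23, a protease gene on the other strand, and 1309 of its 50-nt words, 17.8%, were the reverse complement of PRSS23 sequence. PRSS23 had 187 and 212 estimated counts with a posterior SD of 3.28 and 5.05, nearly the same as that of FZD4. No source used here states whether reads were assigned by strand, without which reads of FZD4 and PRSS23 in the overlap cannot be told apart. FZD2, which shares the most with other frizzleds, had a posterior SD of 1.65 and 1.58 counts. LRP5 shared 6 words with LRP5L, a partial copy, and had a posterior SD of 0.55 and 0 counts.

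On GRCh37 the receptors are spread over 7 chromosomes. FZD1 (chromosome 7, 90893748 to 90900641), FZD2 (chromosome 17, 42634852 to 42638630), FZD7 (chromosome 2, 202898578 to 202903164) and FZD8 (chromosome 10, 35927175 to 35931224) have 1 exon, so their coding sequence is not interrupted. FZD5 (chromosome 2, 208627322 to 208634630) has 2 exons of which 1 codes, and FZD4 (chromosome 11, 86656721 to 86666437) has 2 coding exons. FZD3 (chromosome 8, 28351722 to 28431784) and FZD6 (chromosome 8, 104310661 to 104345094) have 8 and 7 exons, of which 6 code in each. LRP5 (chromosome 11, 68080059 to 68216743) and LRP6 (chromosome 12, 12268959 to 12419978) have 23 exons each. The GC content of the coding sequence was 42.5% in FZD6 and 43.7% in FZD3, 46.5% in LRP6 and 50.4% in FZD4, and from 63.6% to 70.9% in the other 6 receptors.

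The rest of the pathway was read from lists of 91 genes by role, of which 60 were detected, 65.9%, near the 63.7% of all protein-coding genes. FZD9 and FZD10, the remaining frizzleds, were detected at 5.21 ± 0.0990 and 2.79 ± 0.163 TPM (SD, n = 2). FZD9 was above FZD4 in both replicates, and FZD10 was below FZD4 in both. SMO, the Hedgehog transducer of the same receptor class, had 26.1 ± 0.424 TPM, above each of the 8 frizzleds in both replicates. Of 8 other receptors and partners 7 were detected, with RYK (an atypical Wnt receptor) at 45.2 ± 1.40 TPM, MESD (the chaperone of LRP5 and LRP6) at 34.6 ± 3.84 and PTK7 (a polarity co-receptor) at 32.3 ± 2.07. MUSK was listed at 0 in both replicates.

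Ligands were sparse. Of 20 ligand genes 7 were detected, with WNT5A at 18.5 ± 0.262 TPM, WNT5B at 4.12 ± 0.721 and WNT11 at 3.78 ± 0.530 (SD, n = 2). WNT10B had the same mean TPM as WNT11, 3.78. WNT1, WNT10A and NDP, which encodes norrin, were listed at 0 in both replicates. Both genes for Wnt release were detected, WLS, the carrier of Wnt to the surface, at 94.3 ± 5.32 TPM and PORCN, which attaches the lipid, at 8.45 ± 0.919.

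Of the 9 genes of the R-spondin module 5 were detected. RSPO1 had 107 and 101 TPM, above every receptor, whereas RSPO2, RSPO3 and RSPO4 were below 1 TPM. LGR4, a receptor for R-spondins, was at 20.0 ± 3.23 TPM and ZNRF3, the ligase that removes frizzleds, at 13.3 ± 0.877 (SD, n = 2). Of 19 inhibitors 7 were detected, with KREMEN1, which takes up LRP6 with DKK1, at 18.6 ± 3.97 TPM, TPBG at 9.08 ± 0.849 and DKK3 at 4.04 ± 1.124. DKK4, FRZB and SOST were listed at 0 in both replicates.

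All 19 cytoplasmic and all 8 nuclear genes were detected. CSNK1E, a kinase of Dishevelled and LRP6, was at 457 ± 44.5 TPM, CTNNB1 (beta-catenin) at 230 ± 1.55 and CSNK1A1 at 206 ± 8.65 (SD, n = 2), and the median of the cytoplasmic list, 30.5 TPM, was 3.24-fold the median of 9.41 TPM of the 10 receptors. Of the nuclear genes the TCF factors TCF7L2 and LEF1 had 36.3 ± 0.0849 and 34.1 ± 1.95 TPM, and PYGO2, a coactivator, 35.3 ± 1.80. Of 9 genes known as Wnt targets 7 were detected, with LEF1, ZNRF3 and AXIN2 the highest, the last at 8.64 ± 1.02 TPM. Of the 9 targets 6 also stood in another list, LEF1 among nuclear genes, AXIN2 among cytoplasmic genes, ZNRF3, RNF43 and LGR5 in the R-spondin module and NOTUM among inhibitors.

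**Figure D5:**
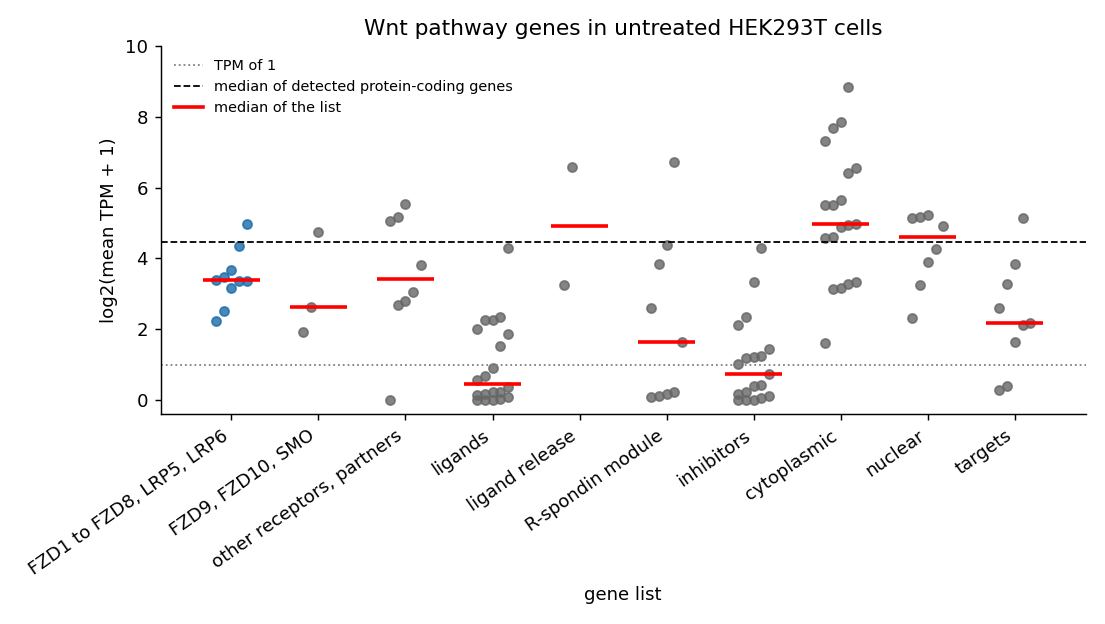
Level of each gene as log2(mean TPM + 1) by list, with the median of each list as a red bar, the median of detected protein-coding genes as a dashed line and a TPM of 1 as a dotted line. The 10 receptors lie between 2.23 and 4.98, and of the lists drawn ligands and inhibitors have the lowest medians, 0.46 and 0.74.

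The labels give kidney as the tissue. None of 7 markers of mature kidney cells was detected, and UMOD, SLC12A3, AQP2, SLC34A1 and CDH16 were listed at 0 in both replicates. Of 7 matched markers of endothelium, blood and fibroblasts 1 was detected, COL1A1 at 8.89 ± 1.94 TPM (SD, n = 2), COL3A1 averaged 1.29 ± 0.481 TPM, and CDH5 and CD3E were listed at 0.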

How the data were processed

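RNA-Seq of 2 samples in 1 group was analysed. Per the submitters' processing notes, reads were trimmed with Trimmomatic 0.36, aligned with STAR 2.6.1c to hg19 (GRCh37.p13) and quantified with RSEM 1.3.1, whereas the methods name featureCounts. Estimated counts were deposited by the authors as RSEM gives them, with a read that fits several genes shared out among these. TPM and FPKM values were scaled by the authors for transcript length. The posterior SD and the TPM interval bounds are scores deposited by the authors, with an interval level that no source used here states. For all 10 receptors the count in a deposited table of pooled reads was within 1% or 1 count of the sum of the replicates.

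Symbols, isoforms and coordinates came from GENCODE release 44 on GRCh37, and 96.1% of identifiers matched a symbol. Detection needed 1 TPM in both replicates. Counts, rounded, were tested with scipy 1.17.1 against TMM-scaled library sizes (edgeR 4.0.16, R 4.3.3) over genes whose counts summed to 10 or more, with 0.5 added in log2 ratios. Adjusted p-values under 0.05 were called. Proteins translated from the annotated coding sequence were aligned with Biopython 1.88 (BLOSUM62, gap scores -11 and -1). The binomial test was run on simulated counts whose only error was counting error, which does not show how it performs on these libraries. The members, lists and tests were chosen with earlier results of these data known. All 10 receptors and, of the pathway lists, the 3 highest genes and those listed at 0 were named. RSPO2 to RSPO4, WNT10B, RNF43, LGR5, NOTUM, PRSS23 and LRP5L were named after their values were seen. Other thresholds, scales, normalizations, filters and replicates were tried as alternatives. Some marker genes are not reported here.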

Additional observations from a re-analysis of the deposited data

How the results depend on the processing

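No paired analysis was possible because both libraries belong to 1 group. Detection of the receptors was 10 under each alternative except a TPM of at least 5, which FZD1 and FZD4 missed and which left 8, and leaving out a replicate gave 10 to 10. Pathway genes detected ranged from 41 (TPM of at least 5) to 72 (TPM of at least 0.1), with 61 without either replicate. No receptor differed between the libraries under any alternative, while the genes called in all fell from 696 to 71 of 8675 with whole counts only, where LRP6 alone of the receptors was tested, and to 217 with the exact test of edgeR. Neighbours with overlapping levels numbered 7 by the deposited TPM intervals, counting an overlap in either replicate. The share of FZD6 was 11.01% in estimated counts and 15.7% of all 10 frizzled genes, the latter added after seeing the data, and 16.3% to 18.9% leaving out a replicate. The log2 ratio of LRP6 to LRP5 turned to 0.049 in estimated counts, which lack the correction for length, was -0.94 per kb of canonical transcript, also added after seeing the data, and ran from -0.85 to -0.40 leaving out a replicate. The median of the receptors against detected protein-coding genes was -1.21 with posterior mean TPM, -0.60 against all detected genes and -1.08 to -0.94 leaving out a replicate. The causes of these shifts were not tested unless stated. With 2 libraries, an SD rests on a single difference, and at this depth the count ratios of the lower receptors have wide intervals.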
